A study of Mus musculus with 2 samples.

Results

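The 9 genes described here, Trem2, Gpnmb, Spp1, Cd9, Cd63, Lgals3, Cd5l, Syngr1 and Mfge8, are commonly used to recognise the lipid-laden (foam) macrophages of the diseased artery wall. They were found by symbol among the 31053 genes of the count tables, and all 9 were listed in both libraries. The set was chosen with earlier results of these same libraries known, so the levels of its members and their differences between diets are given as descriptions, without a test. The aortic arch of Apoe-/- mice on the C57BL/6 background, male and 16 weeks old, was dissociated with an enzyme mix and profiled by droplet single-cell RNA sequencing. The normal diet (ND) library came from mice on chow, and the high fat diet (HFD) library from mice given food rich in fat and cholesterol for 12 weeks. Both groups lack Apoe, the gene for an apolipoprotein by which lipoprotein remnants are cleared, so neither is a normolipidaemic control. Each library pooled the cells of 2 aortas and each diet had 1 library, so there was no replicate, the 2 mice cannot be told apart, and all intervals below cover counting error only.

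A macrophage that takes up more cholesterol than it can export stores the surplus as esters in droplets and becomes a foam cell. TREM2 is a lipid-sensing receptor of the macrophage surface that signals through the adaptor TYROBP, and GPNMB is a transmembrane glycoprotein of lysosomes and melanosomes. Osteopontin (Spp1), MFG-E8 (Mfge8), CD5L (Cd5l) and galectin-3 (Lgals3) are secreted proteins that act in matrix adhesion, the engulfment of apoptotic cells, lipid handling and glycan binding, respectively. CD9 and CD63 are tetraspanins, of the cell surface and of late endosomes, and synaptogyrin-1 (Syngr1) is a vesicle membrane protein.

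The 3 genes on which the results turn lie on separate chromosomes of the mouse genome (GRCm38, GENCODE M21). Trem2 is at chr17:48346401-48354147, Gpnmb at chr6:49036546-49070929 and Spp1 at chr5:104435118-104441050, all on the plus strand. Their promoters are shown because the 3 genes were high in the same cells, and each line gives the 250 bases before the RefSeq transcription start (GRCm38.p6, plus strand, 5′ to 3′). Capitals mark matches to the motifs named after the sequences, and the windows are chr17:48346151-48346400, chr6:49036268-49036517 and chr5:104434861-104435110.
Trem2: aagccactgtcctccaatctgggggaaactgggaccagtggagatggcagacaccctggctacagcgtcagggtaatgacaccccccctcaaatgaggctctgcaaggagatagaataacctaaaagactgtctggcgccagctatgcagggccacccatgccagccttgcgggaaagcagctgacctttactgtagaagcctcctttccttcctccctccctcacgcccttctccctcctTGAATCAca
Gpnmb: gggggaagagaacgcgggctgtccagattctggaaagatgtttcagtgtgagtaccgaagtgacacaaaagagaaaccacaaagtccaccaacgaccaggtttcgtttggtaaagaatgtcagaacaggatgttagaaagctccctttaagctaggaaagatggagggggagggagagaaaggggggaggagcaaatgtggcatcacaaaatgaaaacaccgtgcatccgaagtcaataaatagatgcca
Spp1: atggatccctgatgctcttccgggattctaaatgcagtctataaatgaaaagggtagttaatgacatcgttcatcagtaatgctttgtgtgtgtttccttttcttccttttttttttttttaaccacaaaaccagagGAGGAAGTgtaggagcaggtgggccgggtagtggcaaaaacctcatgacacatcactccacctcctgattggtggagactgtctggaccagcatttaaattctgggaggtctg

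These windows and those of the other members were searched on both strands for TGANTCA (AP-1), CACGTG (the E-box of MITF and TFE factors), CATGTG (the M-box core of MITF) and GAGGAAGT (PU.1). All 9 members matched the RefSeq table, with 10 windows because Spp1 has more than 1 start. A match was present in 3 of the 10 windows, and no match overlapped another. Trem2 held TGAATCA 9 bases before its start, the Spp1 window shown held GAGGAAGT 113 bases before its start, and Cd9, a gene of the minus strand, held CATGTG on the strand opposite to the gene, 38 bases before its start. The Gpnmb window held none of the 4 motifs. Among all 32851 windows of this length, 6.75% held TGANTCA, 6.02% CACGTG, 12.3% CATGTG and 2.44% GAGGAAGT, so the members shared no motif and each match is a description of letters only.

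Of 10234 ND and 14225 HFD barcodes, 5416 and 2739 were kept as cells, with medians of 3732.5 and 5336 UMIs (unique molecular identifiers, 1 per captured RNA molecule). The HFD cells carried more mitochondrial RNA, with a median of 21.9% of UMIs against 16.8%. Apoe, deleted in both groups, was at 38.3 CPM (UMIs of the gene per 1000000 UMIs of the cell group) in ND and 33.2 CPM in HFD macrophages, and no library with an intact Apoe gene was analysed here. The ND library also held 54 cells with markers of airway club cells, a type foreign to the aorta, against 0 of 2739 HFD cells (upper 95% limit 0.135%). Macrophages were taken as cells with a UMI of at least 3 of 7 markers (among them C1qa, C1qb, C1qc, Csf1r, Adgre1 and Cd68) and of no other type. This gave 335 ND macrophages, 6.19% of cells, and 471 HFD macrophages, 17.2% of cells. Resident macrophages had at least 2 of Lyve1, Folr2, Cbr2, F13a1 and Cd163, foam-type macrophages had a UMI of both Trem2 and Gpnmb and were not resident, and the rest were neither.

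Foam-type macrophages made up 29.7% of HFD macrophages (140 cells, 95% Clopper-Pearson interval 25.6% to 34.1%) and 0.896% of ND macrophages (3 cells, 0.185% to 2.59%). Resident cells numbered 241 in ND and 233 in HFD, and cells of neither kind 91 and 98. The gate is a range set by a UMI and not a cell type: the HFD foam-type cells reached down to 1 UMI of Trem2 and 1 of Gpnmb. Just outside it, 10 of the 98 HFD cells of neither kind had a Gpnmb UMI and 35 had a Trem2 UMI, none of them both by the definition of the gate. A further 5 of the 233 HFD resident cells had both. The gate also moved with depth and RNA quality. HFD foam-type cells had a median of 8757 UMIs against 5208 in resident cells and 5612 in the rest, and 15.5% mitochondrial UMIs against 23.3% and 23.1%. With every cell thinned to 1000 UMIs the HFD share was 18.3%, and with a mitochondrial limit of 20% it was 53.2% (109 of 205 macrophages). The part of depth and RNA quality in the share was not tested. All 7 macrophage markers were present in the HFD foam-type cells, with a summed level of 11058 CPM against 15500 CPM in resident and 8532 CPM in the other HFD macrophages. Endothelial and fibroblast markers summed to 24.8 and 25.5 CPM in the foam-type cells, dendritic cell markers to 299 CPM, and mesothelial markers were at 0. The gate asks for at least 3 of these 7 markers and sets apart cells that pass another gate. These levels therefore partly follow from the gate and are no check of identity. Alveolar macrophage markers, of lung, summed to 46.8 CPM in ND and 96.1 CPM in HFD foam-type cells, and Marco, which marks such cells, had 71 UMIs in 4 other ND macrophages and 0 UMIs in HFD macrophages. Other markers of that list had more UMIs in HFD: Ear2 had 94 in ND and 300 in HFD macrophages, Chil3 13 and 18. Car4 had 2 and 8, Siglecf 0 and 3, and Ear1 and Krt79 each 0 and 1. These counts are not scaled to the number of cells or UMIs.

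In all macrophages together, 8 of the 9 genes were at least 2-fold higher in HFD than in ND, and the ninth, Cd9, was higher by less. Over all 8359 genes with at least 30 UMIs, 3.68% were higher and 6.23% lower by at least 2-fold, and the median log2 ratio was -0.11. The set was chosen on this contrast, so nothing is read from the count against that background.

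**Figure D1:**
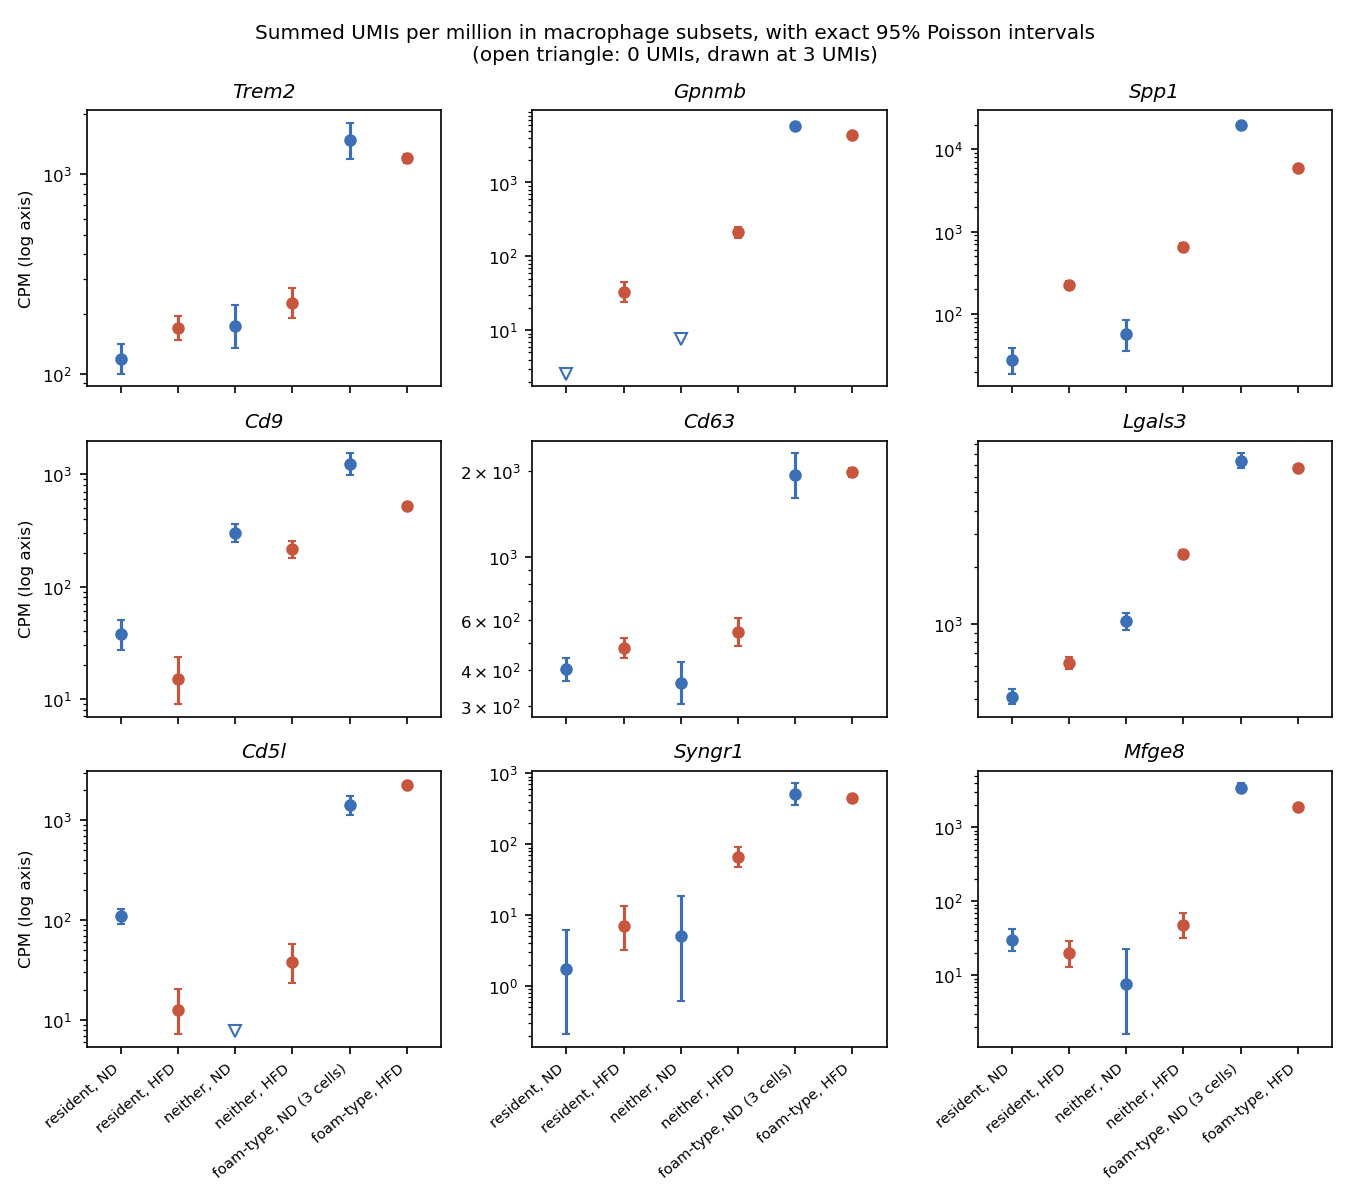
Level of each gene (CPM, log axis) in resident, neither and foam-type macrophages of the ND and HFD libraries, with exact 95% Poisson intervals; an open triangle marks 0 UMIs, drawn at the level of 3 UMIs. All 9 genes were higher in HFD foam-type cells than in HFD cells of neither kind, from 2.42-fold (Cd9) to 59.8-fold (Cd5l).

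Trem2, the receptor, was detected in macrophages of both diets. Its level was 187 CPM in ND and 621 CPM in HFD macrophages, a log2 ratio of 1.73 (95% interval 1.56 to 1.91), the 94th largest of 8359 genes. By subset, ND resident cells were at 119 CPM, ND cells of neither kind at 175 CPM, HFD resident cells at 170 CPM and HFD cells of neither kind at 227 CPM. HFD foam-type cells were at 1203 CPM (1146 to 1262), with 1, 9 and 56 UMIs in the lowest, median and highest of the 140 cells. The 3 ND foam-type cells held 3, 17 and 75 UMIs. Without the foam-type cells of both libraries, the log2 ratio of Trem2 was 0.50 (0.25 to 0.75), a fall that the gate, which takes out cells with a Trem2 UMI, brings by itself. The ratio was 0.51 (0.20 to 0.83) in resident cells and 0.38 (-0.05 to 0.82) in cells of neither kind. A Trem2 UMI was found in 33.1% of ND and 59.4% of HFD macrophages, or 9.61% and 29.7% after thinning to 1000 UMIs. In endothelial cells, which should lack the receptor, the share was 0.0455% in ND and 1.62% in HFD (medians of 3485 and 5243 UMIs), and 0.359% of the thinned HFD cells.

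Gpnmb was counted in foam-type cells alone among the ND macrophages. The gate asks for a Gpnmb UMI, so its levels inside and outside the foam-type cells partly follow from the gate. All 371 Gpnmb UMIs of the ND macrophages lay in the 3 foam-type cells, with 9, 60 and 302 UMIs, and 0 of the other 332 cells had one, an upper 95% limit of 1.10% on cells with a UMI. HFD macrophages were at 1926 CPM against 229 CPM in ND, a log2 ratio of 3.07 (2.92 to 3.23), the 10th largest. HFD foam-type cells were at 4400 CPM (4290 to 4513), with 1, 25 and 413 UMIs in the lowest, median and highest cell. Outside the foam-type gate, HFD resident cells were at 33.1 CPM and HFD cells of neither kind at 212 CPM. Together they held 165 UMIs against 0 in ND, at least 46.2-fold higher (lower 95% limit 37.2-fold). These UMIs lay in 10 of 233 resident cells (4.29%), 27 of 42 in 1 of them, and in 10 of 98 cells of neither kind (10.2%). A Gpnmb UMI was found in 34.0% of HFD macrophages and 2.79% of HFD endothelial cells, or 26.8% and 0.449% after thinning.

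Spp1, the gene of osteopontin, rested on few cells in each library. Its level was 821 CPM in ND and 2728 CPM in HFD macrophages, a log2 ratio of 1.73 (1.65 to 1.82). However, the 3 ND foam-type cells held 1275 of the 1329 ND macrophage UMIs, with 1025, 38 and 212 UMIs each. The cell with 1025 had 0 UMIs of C1qa and Csf1r and 5 and 3 UMIs of Cd68 and Adgre1, so it passed the macrophage gate without these defining genes. Without foam-type cells, Spp1 was at 34.8 CPM in ND and 360 CPM in HFD, a log2 ratio of 3.37. HFD resident cells were at 226 CPM against 27.5 CPM in ND, and HFD cells of neither kind at 652 CPM against 56.5 CPM. These levels also came from few cells: the 10 highest cells held 93.4% of the Spp1 UMIs of the HFD resident cells and 97.4% of those of the HFD cells of neither kind. A single HFD resident cell alone held 228 of 286 UMIs, and without it the HFD resident level was 46.0 CPM. In the foam-type cells of HFD, at 5916 CPM (5788 to 6046), 112 of 140 cells had a Spp1 UMI, the median cell had 13.5 and the highest 1623. The 10 highest cells held 57.1% of the UMIs there.

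Cd5l and Mfge8, which encode secreted proteins linked to the uptake of lipid and of dying cells, were carried by a minority of the foam-type cells. Cd5l was at 135 CPM in ND and 977 CPM in HFD macrophages, a log2 ratio of 2.86 (2.66 to 3.06). In HFD foam-type cells it reached 2264 CPM, but 58 of 140 cells had a UMI, the median cell had 0, the highest had 494, and the 10 highest cells held 69.1% of the UMIs. Outside the foam-type gate the pooled direction turned, with 81.7 CPM in ND and 20.5 CPM in HFD (log2 ratio -1.99). That ND level rested on 2 resident cells, which held 121 of the 127 UMIs. In cells of neither kind Cd5l had 22 UMIs in HFD and 0 in ND, at least 4.91-fold higher in HFD. Mfge8 was at 159 CPM in ND and 819 CPM in HFD, a log2 ratio of 2.36 (2.18 to 2.55). In HFD foam-type cells, at 1884 CPM, 48 of 140 cells had a UMI, the highest had 467, and the 10 highest cells held 80.1%. Outside the gate it was 24.5 CPM in ND and 28.7 CPM in HFD, with a log2 ratio of 0.23 whose interval (-0.40 to 0.87) included 0. That value pooled cells of neither kind, at 7.70 CPM in ND (3 UMIs) and 48.2 CPM in HFD (log2 ratio 2.64, 0.95 to 5.01), with resident cells, at 30.1 and 19.7 CPM (-0.61, -1.41 to 0.17). In ND, 219 of the 258 macrophage UMIs of Mfge8 came from 1 foam-type cell.

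Lgals3, the gene of galectin-3, was the most widely detected in HFD foam-type cells of the 7 members that the gate did not use. All 140 HFD foam-type cells had a UMI, with 2, 55 and 318 in the lowest, median and highest cell and a level of 6773 CPM (6636 to 6912). Its level was graded across the subsets: HFD resident cells were at 622 CPM and HFD cells of neither kind at 2353 CPM, against 412 CPM and 1032 CPM in ND. Over all macrophages the level was 3555 CPM in HFD and 838 CPM in ND, 4.24-fold higher (4.01 to 4.49, log2 ratio 2.09), and without the foam-type cells it was 1.04, from 568 to 1166 CPM.

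The tetraspanins differed from each other. Cd63, of late endosomes, was at 454 CPM in ND and 1129 CPM in HFD (log2 ratio 1.31, 1.20 to 1.43) and had a UMI in 138 of 140 HFD foam-type cells, with a median of 16. Its level in HFD was 478 CPM in resident, 547 CPM in neither and 1977 CPM in foam-type cells, and without the foam-type cells its log2 ratio between diets was 0.35. Cd9 was at 148 CPM in ND and 266 CPM in HFD (0.84, 0.63 to 1.05). Outside the foam-type gate Cd9 was lower in HFD, at 77.9 CPM against 104 CPM in ND (log2 ratio -0.41). In resident cells it had 19 UMIs in HFD and 44 in ND (log2 ratio of CPM -1.33, -2.19 to -0.53), and in cells of neither kind 215 and 300 CPM (-0.48). In HFD foam-type cells it reached 519 CPM with a median of 3 UMIs, and the higher total in HFD came with those cells.

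Syngr1 was low in ND, with 37 UMIs (22.9 CPM), 33 of them in the 3 foam-type cells. In HFD it was at 207 CPM, a log2 ratio of 3.18 (2.70 to 3.70), the sixth largest of all genes counted. Its level in HFD was 7.10 CPM in resident, 67.1 CPM in neither and 451 CPM in foam-type cells, of which 111 of 140 had a UMI. Without foam-type cells the log2 ratio was 3.33, from 48 HFD and 4 ND UMIs, so its interval was wide (1.88 to 5.27).

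Against the HFD macrophages of neither kind, all 9 genes were at least 2-fold higher in the HFD foam-type cells. Among 5639 genes compared in this way, 8.3% were higher and 7.34% lower by at least 2-fold, with a median log2 ratio of 0.01, but the gate used Trem2 and Gpnmb, and the members were chosen with such cells in view. Of the 7 genes that the gate did not use, Cd5l had the largest ratio of all genes (59.8-fold, 39.4 to 95.6) and Mfge8 the second largest (39.1-fold, 27.0 to 59.0). Spp1 was 9.08-fold higher (8.19 to 10.1), Syngr1 6.72-fold (4.86 to 9.54) and Cd63 3.61-fold (3.22 to 4.07). Lgals3 was 2.88-fold higher (2.72 to 3.05) and Cd9 2.42-fold (1.99 to 2.94), which placed them at ranks 185 and 287.

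**Figure D2:**
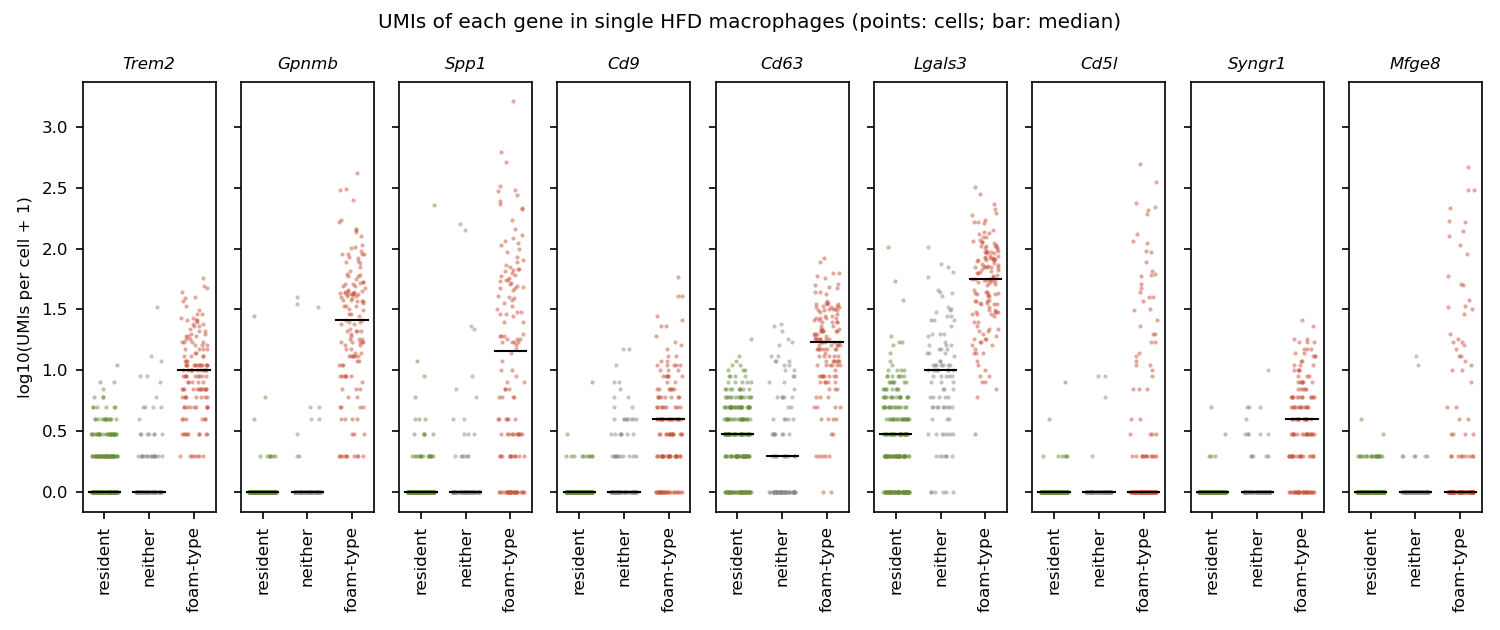
UMIs of each gene per HFD macrophage, as log10(UMIs + 1), by subset; each point is a cell and the bar is the median. Lgals3 was above 0 in all 140 foam-type cells, whereas the median foam-type cell had 0 UMIs of Cd5l and of Mfge8.

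The members were next followed within single HFD macrophages, thinned to 1000 UMIs so that deeper cells would not carry more genes. Of the 36 pairs of members, 35 had a Spearman rho of at least 0.2 over the 471 cells, with a median of 0.37 (lowest 0.15, highest 0.64). Gpnmb with Lgals3 had 0.64, Gpnmb with Spp1 0.62 and Trem2 with Gpnmb 0.56. In ND macrophages 8 of 36 pairs reached 0.2 and the median was 0.11. Most of these 8 pairs held Gpnmb or Syngr1, each detected in only 2 of the 333 thinned ND cells. Cd5l was detected in 3 of them and Spp1 in 9, so the ND values rest on few cells and were not set against those in HFD. Within the 140 HFD foam-type cells alone, 14 pairs reached 0.2 and the median was 0.17, where the gate itself restricts the range of Trem2 and Gpnmb, so these values were not set against those over all HFD macrophages. The strongest pairs within foam-type cells were Cd5l with Mfge8 (rho 0.43) and Spp1 with Cd9 (0.42). An Mfge8 UMI was found in 51.4% of the 37 foam-type cells with Cd5l and in 13.6% of the 103 without it. A Cd9 UMI was found in 42.5% of the 80 foam-type cells with Spp1 and in 16.7% of the 60 without. These correlations are descriptions over cells that share a library, and doublets could not be told apart from cells that express both genes.

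**Figure D3:**
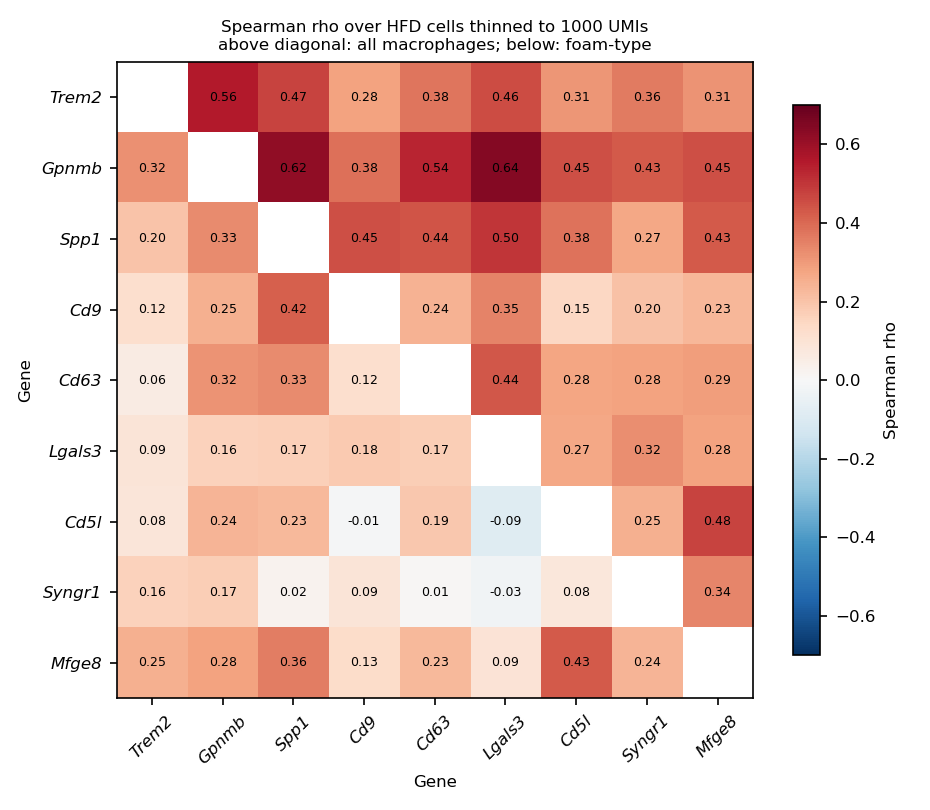
Spearman rho of each pair of genes over HFD macrophages thinned to 1000 UMIs, with all 471 macrophages above the diagonal and the 140 foam-type cells below it. The median was 0.37 above the diagonal and 0.17 below it, where the gate restricts the range of Trem2 and Gpnmb.

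Cells split by Gpnmb alone showed how far the other members followed it. In the 160 HFD macrophages with a Gpnmb UMI, Spp1 was at 5663 CPM against 148 CPM in the 311 without, and Trem2 at 1109 against 192 CPM. Cd5l was at 2078 against 8.7 CPM and Mfge8 at 1733 against 16.9 CPM. Lgals3 was also higher with Gpnmb, at 6444 against 1017 CPM, but kept a clear level without it. A count of 8 lipid-handling genes that holds no member (Abcg1, Abca1, Plin2, Pltp, Nceh1, Lpl, Fabp5 and Atp6v0d2) gave a further ordering. It is no independent check, since the list was chosen with these data known and some of its genes were themselves high in foam-type cells. In HFD cells of neither kind and foam-type cells, Fabp5 was at 1018 and 7753 CPM and Atp6v0d2 at 29.2 and 415 CPM. In HFD macrophages with 0, 1, 2 and at least 3 of these genes detected after thinning (34, 88, 141 and 208 cells), Trem2 was at 88.2, 182, 206 and 885 CPM and Gpnmb at 0, 136, 262 and 2423 CPM. Cd5l followed at 0, 11.4, 121 and 1072 CPM, and Lgals3 at 882, 1034, 1241 and 4582 CPM. The classes below the last held few UMIs, such as 0, 1 and 17 of Cd5l and 3 of Trem2 in the lowest class. The Trem2 intervals of these classes overlapped. The other 5 members were also highest in the last class but had no steady order below it, such as Spp1 at 971, 250, 333 and 3635 CPM and Cd9 at 118, 90.9, 106 and 317 CPM. The same 8 genes, taken without thinning, did not pick out the foam-type cells, since at least 3 of them were detected in 94.0% of HFD resident cells and in 88.8% of HFD cells of neither kind.

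Across the whole aortic arch, the members fell into those held mostly by macrophages and those shared with the vessel wall. HFD macrophages, 17.2% of the cells, held 78.6% of the Trem2 UMIs of the library, 80.6% of Gpnmb, 81.8% of Spp1, 91.4% of Cd5l, 76.4% of Syngr1 and 72.3% of Lgals3. They held less of Cd63 (51.7%), Mfge8 (47.5%) and Cd9 (21.7%). In ND, macrophages were 6.19% of cells and held 79.9% of Trem2, 70.7% of Gpnmb, 79.4% of Spp1 and 85.2% of Cd5l, but 40.1% of Lgals3, 35.6% of Syngr1, 14.1% of Cd63, 6.1% of Mfge8 and 2.8% of Cd9. As gated here, Lgals3 and Syngr1 were held mostly by macrophages in HFD and not in ND. In ND, however, cells that passed the macrophage gate and another held a further 16.3% of the Lgals3 UMIs. For Syngr1, 33 of the 37 ND macrophage UMIs lay in the 3 foam-type cells. Of 210 HFD cells that passed the macrophage gate and another and were set apart as mixed, 33 had both Trem2 and Gpnmb, so part of the remaining UMIs lay in such cells.

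**Figure D4:**
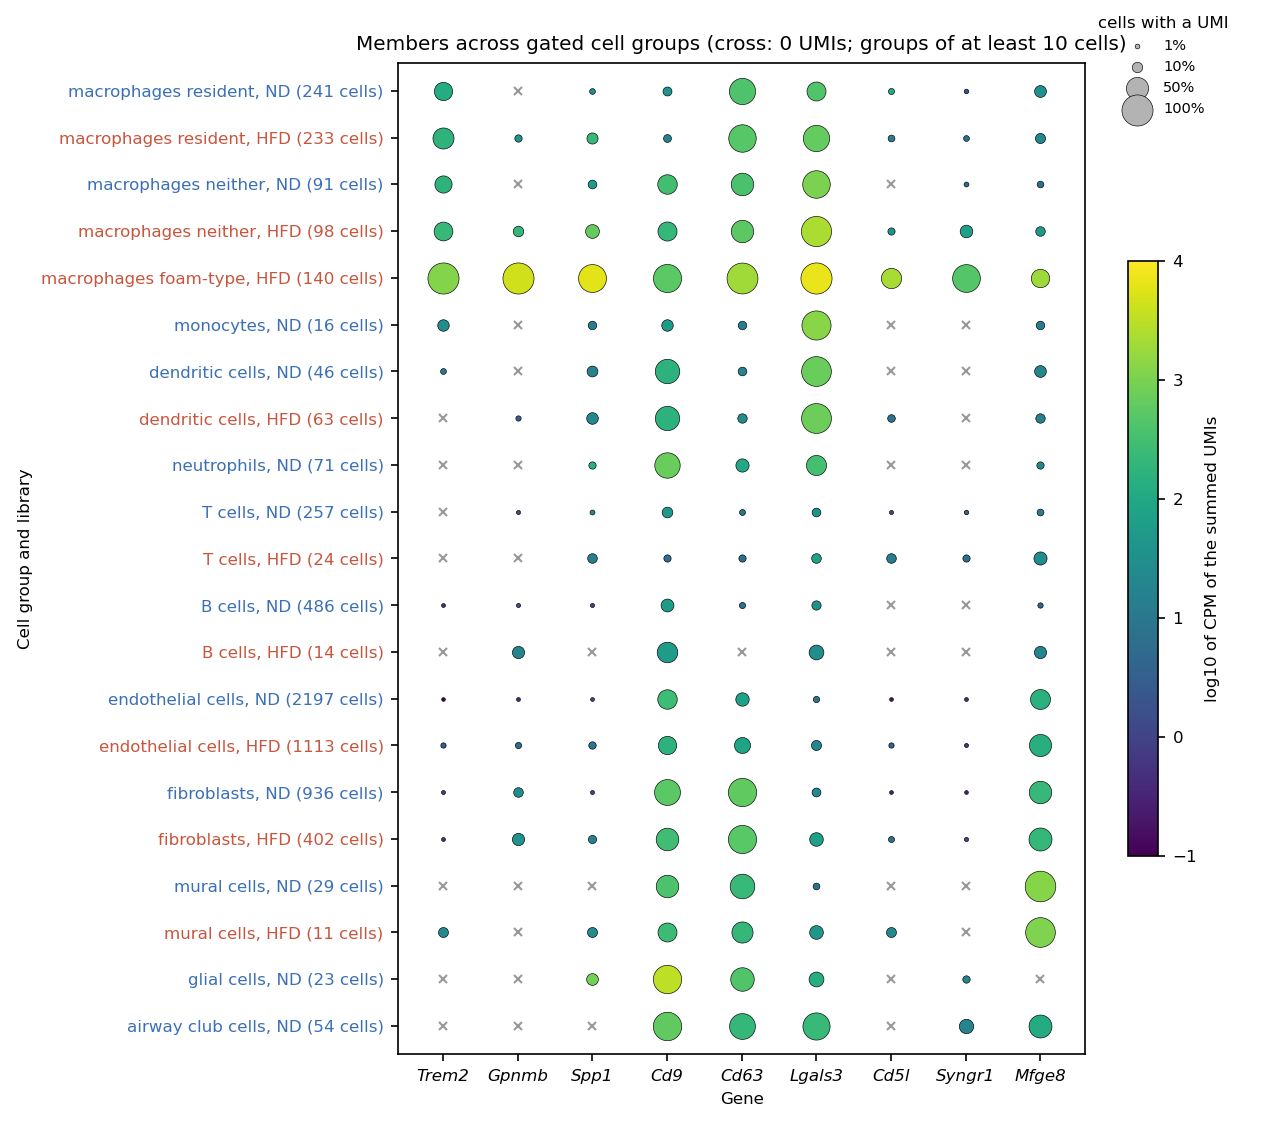
Each gene in the groups of at least 10 cells of both libraries; dot area is the percentage of cells with a UMI, colour is log10 CPM and a cross marks 0 UMIs. Trem2, Gpnmb and Cd5l were high in foam-type macrophages, whereas Cd9 was highest in ND glial cells and Mfge8 was also high in mural cells.

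Cd9 was highest in ND glial cells, at 3121 CPM in 23 cells, followed by ND neutrophils at 716 CPM and ND club cells at 605 CPM, above both macrophage totals. In fibroblasts Cd9 was at 538 CPM in ND and 299 CPM in HFD (log2 ratio -0.85). In endothelial cells it was at 272 and 163 CPM (-0.74), so it was lower in HFD in the main wall cells. It was higher in the HFD macrophage total, but lower in HFD in resident macrophages (-1.33) and in those of neither kind (-0.48). In foam-type cells it was also lower (-1.25, with 3 ND cells). Mfge8 was at 1261 CPM in ND and 1080 CPM in HFD mural cells (29 and 11 cells), the contractile and pericyte cells of the wall in which this gene is well known. Its level in fibroblasts (223 and 214 CPM) and endothelial cells (158 and 145 CPM) was close between the diets. Cd63 was at 589 and 500 CPM in fibroblasts, where Gpnmb was also detected at 28.1 CPM in ND and 38.4 CPM in HFD, in 8.33% and 14.4% of cells. Lgals3 was at 1283 CPM in 16 ND monocytes and at 711 and 748 CPM in ND and HFD dendritic cells. Spp1 was at 866 CPM in ND glial cells, in 3 of 23 cells, and at 137 CPM in ND neutrophils. Several macrophage genes had a low level in HFD wall cells that was higher than in ND: Lgals3 in endothelial cells was at 8.08 CPM in ND and 21.1 CPM in HFD, and Spp1 at 0.876 and 8.80 CPM. Free RNA in the HFD droplets and expression by wall cells cannot be told apart at this depth.

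The partners of the members were described from a list of 94 genes, of which 83 had at least 30 UMIs in macrophages. Of these, 21 were at least 2-fold higher in HFD macrophages and 5 lower, and their median log2 ratio was 0.47. Over all genes 3.68% were higher and 6.23% lower, with a median of -0.11, and since the list was chosen with these data known nothing is read from the difference. Tyrobp, the adaptor of TREM2, was at 1392, 2139 and 2988 CPM in HFD resident, neither and foam-type cells, with a log2 ratio of 0.46 between diets, and the kinase gene Syk had -0.14. None of the 5 measured genes of the Trem2 signalling complex differed by 2-fold between diets. The same held for the 6 measured receptor genes of osteopontin and MFG-E8, among them Cd44 (-0.22), Itgav (0.92), Itgb5 (0.88) and Itga4 (-0.59). Within HFD, 1 gene of each group was lower by at least 2-fold in foam-type cells than in cells of neither kind. These were Plcg2 (40.0 against 80.8 CPM) and Itga4 (45.1 against 141 CPM), where 7.34% of all genes were lower. Sdc4, which encodes a syndecan that binds GPNMB, was lower in HFD (-1.18), and within HFD it was at 57.5 CPM in foam-type cells against 212 CPM in cells of neither kind. The calls between diets depend on the scaling: with median-of-ratios scaling, tried after seeing the data, Itgav (1.07) and Itgb5 (1.03) passed 2-fold, and over the whole list 30 genes were higher and 3 lower. Over all 8359 genes, that scaling gave 432 higher and 374 lower.

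Among the other groups of the list, 8 of 16 genes of the lysosome and lipid breakdown and 5 of 7 of lipid storage were at least 2-fold higher in HFD macrophages, with median log2 ratios of 1.01 and 1.45, where 3.68% of all genes were. The 5 largest ratios of the list were those of Fabp5, a fatty acid binding protein (3.06), Cd300lf, a phosphatidylserine receptor (2.75), Atp6v0d2, a subunit of the vacuolar proton pump (2.64), Apoc1, an apolipoprotein (2.60), and Pparg, a lipid-sensing nuclear receptor (2.25, 1.04 to 3.76). For Fabp5 and Atp6v0d2, most ND UMIs lay in the 3 foam-type cells. Fabp5 was at 424 CPM in all ND macrophages, but at 36.9 CPM in resident cells and 33.4 CPM in cells of neither kind. In HFD these 2 subsets were at 121 and 1018 CPM. Atp6v0d2 was at 29.7 CPM in all ND macrophages, and at 6.01 and 2.57 CPM in these 2 subsets, against 5.52 and 29.2 CPM in HFD. Among the 5 smallest were those of Timd4 (-1.94) and Stab1 (-1.05), both phosphatidylserine receptors of resident macrophages, of Sdc4 (-1.18) and of Cd81, a tetraspanin (-1.15). These ratios pool subsets whose shares differed, with resident cells 71.9% of ND and 49.5% of HFD macrophages. Within resident cells Timd4 was at 168 CPM in ND and 79.7 CPM in HFD, and Stab1 at 803 and 614 CPM. In cells of neither kind Stab1 was at 185 and 79.1 CPM. The part of the subset shares in these ratios was not tested. Of the 6 other tetraspanin genes, none was at least 2-fold higher and Cd81 was lower, against 1 higher and 0 lower with median-of-ratios scaling. Over all 8359 genes, 308 were higher and 521 lower, against 432 and 374 with median-of-ratios scaling.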

How the data were processed

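Aortic arch cells of each diet went into 1 library, with 2 aortas pooled. The deposited values are raw UMI counts per gene and barcode, made by the authors with Cell Ranger (version 3.0.1 per the file headers) and not normalized. The submitters' processing notes also name bcl2fastq, UMI-tools, Seurat 3.2.0, R 4.0.0 and the build mm10. The joined counts of both libraries were not used here.

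A barcode counted as a cell when it had 200 or more genes, 200 or more UMIs and no more than 30% mitochondrial UMIs, which gave 5416 ND and 2739 HFD cells, the numbers the study states. Cells were assigned to 14 types by a UMI of at least 3 markers, and those passing several gates were set apart as mixed, which also served as the treatment of doublets. CPM is the sum of a gene's UMIs over the cells of a group per 1000000 UMIs of that group. Sums carry an exact Poisson interval, shares a Clopper-Pearson interval and ratios a conditional binomial interval, each at 95%. Where a gene had no UMI on the lower side, 3 UMIs over the group replaced the 0 and the fold is printed as "at least". Such a fold is not a 95% limit. The UMIs per cell set the precision, and 3′ tag counts do not allow levels of different genes to be compared. With 1 library per diet no difference was tested. Ratios used genes with at least 30 UMIs over both sides, and 2-fold was the limit for a count. Rank correlations between members used cells thinned to 1000 UMIs, also 2000.

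The members, the gene lists and the gates were chosen with earlier results of these data known. Named beside the 9 members were the 5 largest and 5 smallest ratios of the list of 94 related genes, protein partners of members, and the 5 genes most like Trem2, Gpnmb and Spp1 by Pearson's r; some of the genes that this rule or a marker list takes in are not reported here. Other gates, thresholds, scalings and cell filters were tried as alternatives. Positions came from GENCODE M21 (GRCm38) and promoters from RefSeq (GRCm38.p6). The steps were tested on simulated data. Python 3.11.15, numpy 2.4.6, scipy 1.17.1, pandas 2.3.3 and matplotlib 3.10.9 were used.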

Additional observations from a re-analysis of the deposited data

Results flagged for a closer look

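Barcodes over the mitochondrial limit entered none of the comparisons of kept cells. Of 451 HFD barcodes there that passed the macrophage gate, 50 or 11.1% (95% Clopper-Pearson interval 8.34% to 14.4%) were foam-type by Trem2 and Gpnmb, against 2 of 98 or 2.04% (0.248% to 7.18%) in ND. Their median was 2805 UMIs in HFD and 1291 UMIs in ND. Gpnmb was at 559 and 29.5 CPM in these macrophages and Trem2 at 184 and 108 CPM. No difference was tested.

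For 3 genes, the ratio of HFD to ND had the opposite sign in another cell type than in macrophages, and these differences between cell types were not tested. Cd9 was higher in the HFD macrophage total but lower in HFD endothelial cells (log2 ratio -0.74) and fibroblasts (-0.85). In T cells it was also lower (-2.86, from 33 ND UMIs and 1 HFD UMI). Within macrophages, Cd9 was lower in HFD in resident cells (-1.33), cells of neither kind (-0.48) and foam-type cells (-1.25, with 3 ND cells). Cd63, the late endosomal tetraspanin, was lower in HFD fibroblasts (-0.24). Mfge8 was slightly lower in HFD endothelial cells (-0.12).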

How the results depend on the processing

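The ratios of the 9 genes in macrophages were taken again under 11 other settings, which gave 99 ratios. Of these ratios, 56 moved by more than the counting interval, 43 did not and 0 changed sign. The cause was not tested for any of them except where cells were left out. No paired analysis was possible because each diet had 1 library. Intervals cover counting error, and 2 pooled mice per library leave the spread between mice unknown.

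As log2 ratios of HFD to ND, a C1q gate gave Gpnmb 2.90, Mfge8 2.10 and Spp1 3.62. A gate of 2 markers gave Cd5l 7.33, Cd63 1.52, Cd9 1.38, Gpnmb at least 9.30, Lgals3 2.46, Mfge8 5.17, Spp1 7.13, Syngr1 6.66 and Trem2 1.95, and a gate of 4 markers Lgals3 2.17 and Spp1 3.90. With mixed cells kept, values were Cd63 1.5, Cd9 0.40, Gpnmb 3.59, Lgals3 2.21, Mfge8 2.14, Spp1 2.25 and Trem2 2.08. Thinned to 1000 UMIs, they were Cd5l 4.41, Cd9 1.18, Gpnmb 4.80, Lgals3 2.42, Mfge8 2.80, Spp1 2.42, Syngr1 3.94 and Trem2 1.97. As means of per-cell shares, they were Cd5l 3.68, Cd63 1.19, Gpnmb 4.97, Lgals3 2.50, Mfge8 3.02, Spp1 2.44 and Syngr1 4.64. Median-of-ratios scaling gave Cd63 1.46, Lgals3 2.23 and Spp1 1.88. A mitochondrial limit of 20% gave Cd63 1.65, Cd9 1.08, Lgals3 2.27, Mfge8 2.58, Spp1 1.83 and Trem2 2.02, and no limit gave Cd63 1.09, Gpnmb 2.88, Lgals3 1.81, Spp1 1.57 and Trem2 1.47. Without the deepest 5% of cells, values were Cd5l 3.91, Gpnmb 7.62, Lgals3 2.61, Mfge8 3.30, Spp1 0.95 and Syngr1 5.09.

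The settings that leave out foam-type cells were added after seeing the data. Without those of both libraries, Cd5l (-1.99) and Cd9 (-0.41) reversed, and Cd63 was 0.35, Gpnmb at least 5.53, Lgals3 1.04, Mfge8 0.23, Spp1 3.37 and Trem2 0.50. Without the 3 ND foam-type cells alone, Cd5l was 3.58, Cd63 1.52, Cd9 1.36, Gpnmb at least 9.96, Lgals3 2.65, Mfge8 5.07, Spp1 6.29, Syngr1 6.33 and Trem2 2.22.

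The HFD foam-type share was 53.2% at the 20% mitochondrial limit, 20.6% without a limit, 25.1% with mixed cells kept, 24.5% without the deepest cells and 18.3% when thinned, and the ND share was 0% (0 of 234) with a gate of 2 markers. Genes past 2-fold numbered 829 (308 higher, 521 lower), 1969 (788 and 1181) with a minimum of 1 UMI and 366 (149 and 217) with 100 UMIs. Median-of-ratios scaling moved the share of higher calls from 37.2% to 53.6% and the median of all genes from -0.11 to 0.04.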

Other observations

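The genes whose level followed Trem2, Gpnmb and Spp1 most closely were sought over 19 groups of at least 20 cells (cell type or macrophage subset in a library), by Pearson's r of log2(CPM + 10). These groups share libraries, so r is a description. For Trem2 they were Ms4a7 (r = 0.976), a tetraspan-like membrane gene of macrophages, Tfec (0.973), a transcription factor of the MITF family, Gdf3 (0.970), a growth factor, Hpgds (0.965), a prostaglandin synthase, and Fcgr1 (0.960), an Fc receptor. Ms4a7 was at 263, 370 and 738 CPM in HFD resident, neither and foam-type macrophages, and Fcgr1 at 149, 108 and 154 CPM.

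Gpnmb was followed by Tmem26 (0.936), Atp6v0d2 (0.935), Npy (0.898), which encodes neuropeptide Y, Gm13710 (0.894) and F7 (0.883), coagulation factor VII. Atp6v0d2 was at 5.52, 29.2 and 415 CPM in HFD resident, neither and foam-type cells, and F7 at 11.0, 32.7 and 75.7 CPM. Npy rested on 47 HFD and 2 ND macrophage UMIs and Gm13710 on 27 and 3. Spp1 was followed by Il18bp (0.868), a binding protein of interleukin-18, Vamp4 (0.865), Soat1 (0.863), the enzyme that esterifies cholesterol, Chmp4b (0.829) and Tmem104 (0.826). Il18bp was at 32.3, 29.2 and 317 CPM in these subsets, and Soat1 at 82.8, 117 and 289 CPM.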
